A study of Mus musculus with 6 samples.

Results

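The Toll-like receptors are a family of pattern recognition receptors, and 10 of its mouse genes are described here: Tlr1, Tlr2, Tlr3, Tlr4, Tlr5, Tlr6, Tlr7, Tlr8, Tlr9 and Tlr13. They were chosen by gene symbol alone, without reference to their signal. Of the 10, 8 genes have at least 1 named probe on the array, with 10 probes in all, and these 8 were tested among 9973 genes. Tlr5 and Tlr9 have no probe under their symbol or Entrez identifier in the platform annotation used, so they were not analysed here.

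The study profiled total RNA of whole lymph nodes on Illumina Mouse Ref-8 v2 BeadChips, which carry bead-bound probes and give 1 fluorescence reading per probe. One group of 3 arrays came from mice labelled Rag2/pfp KO, which carry knockouts of Rag2 and of perforin (pfp, gene symbol Prf1), and the other group of 3 arrays came from wild-type mice. RAG2 is needed to assemble antigen receptor genes, so these knockouts lack mature B and T cells but keep natural killer cells, myeloid cells and stroma. Perforin forms the pore through which cytotoxic lymphocytes kill. The sources used here give no strain or age, do not name the node, and do not say whether the arrays came from separate animals. The p-values therefore reflect the array-to-array spread alone, and part of that may be technical.

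Toll-like receptors sense microbial molecules through leucine-rich repeats and signal through a cytoplasmic TIR domain that recruits the adaptors MyD88 or TRIF. Tlr1, Tlr2, Tlr4, Tlr5 and Tlr6 act at the cell surface on lipopeptides, lipopolysaccharide or flagellin, whereas Tlr3, Tlr7, Tlr8, Tlr9 and Tlr13 sit in endosomes and, for those whose ligands are known in mouse, bind nucleic acids. Of the receptors listed, Tlr1, Tlr7 and Tlr9 are the ones taken here as shared by B cells and myeloid cells, and the other 7 as receptors of myeloid cells and stroma, although mouse B cells also respond to lipopolysaccharide through Tlr4.

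The arrays differed in more than genotype. Between 51.3% and 56.3% of probes were detected per array, and the median raw intensity was 134.1 to 143.5 in the knockout and 191.5 to 206.7 in wild type. Exocrine gland transcripts, tracked by 13 tested markers, had a mean normalized log2 signal of 11.74 to 14.58 on the 3 knockout arrays and 12.26 on wild-type replicate 2, against 6.02 and 6.04 on wild-type replicates 1 and 3. The label "Lymph node" thus covers RNA with strong gland signal on 4 of the 6 arrays, and results that lean on wild-type replicate 2 are given with and without it. Of all genes 17.3% were called lower in the knockout, and of 10 tested B cell markers all 10 were. Their summed signal was 1647 to 2465 in the knockout and 45453 to 71037 in wild type, and Ms4a1, Cd79a, Fcmr, Fcer2a and Cr2 were not detected on any knockout array. Of 10 tested T cell markers 9 fell, with sums of 1673 to 3587 in the knockout and 29567 to 40535 in wild type. In whole tissue, fewer cells of a type and less RNA per cell cannot be told apart.

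None of the 8 measured Toll-like receptor genes passed the test between knockout and wild type (0 of 8 at an adjusted p under 0.05, limma with Benjamini-Hochberg adjustment over all probes), while 27.5% of all genes tested did (10.2% of all genes were called higher in the knockout and 17.3% lower). At an unadjusted p under 0.05 there were 2 of 8, Tlr1 and Tlr8, against 43.2% of all genes. The groups did not overlap for 2 of 8 receptors, Tlr3 and Tlr8, against 47.4% of all genes. Tlr3 was detected on no knockout array, so it passed the detection filter through wild type alone, which favours a lower knockout value. The median absolute log2 fold change of the 8 receptors was 0.33, and that of all genes was 0.52. By point estimate 5 receptors were higher and 3 lower in the knockout, with a median of 0.12 against 0.03 for all genes. The count of called receptors was 0 with any array left out other than wild-type replicate 2, in fits that called 11.6% to 15.9% of all genes. Without that array it was 1 of 8 (Tlr1, called lower), against 43.4% of all genes called, 23% of all genes lower and 20.4% higher.

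**Figure D1:**
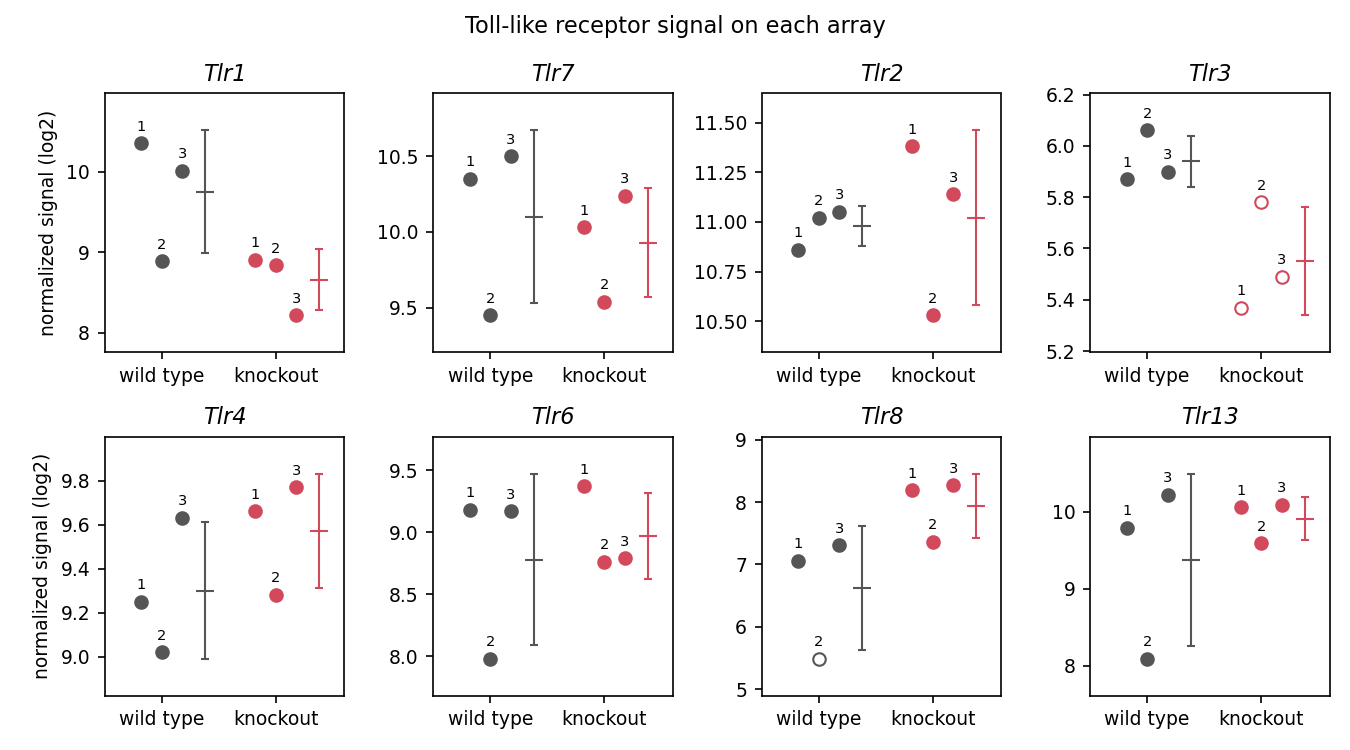
Normalized log2 signal (vertical axis) of the 8 measured Toll-like receptors on the 3 wild-type (grey) and 3 knockout (red) arrays, numbered by replicate. Bars give the mean and SD of each group, and open circles mark arrays on which the probe was not detected. Wild-type replicate 2 was the lowest wild-type array for 6 of the 8 genes.

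Wild-type replicate 2 and knockout replicate 2 each read low for most receptors. Wild-type replicate 2 was the lowest of its group for 6 of 8 receptors, the exceptions being Tlr2 and Tlr3, where 52.4% of all genes had their lowest wild-type value on that array. Knockout replicate 2 was the lowest of its group for 6 of 8 receptors, the exceptions being Tlr1 and Tlr3, against 37.6% of all genes. Of the knockout arrays, replicate 2 also had the highest gland signal (mean log2 of 14.58). With the mean gland marker signal as a covariate, Tlr6, Tlr8 and Tlr13 passed the test at log2 fold changes of 1.21, 2.72 and 2.02, and Tlr1 stood at -0.13 (limma adjusted p of 0.0141, 0.00856, 0.0127 and 0.828). In that fit 20.9% of all genes were called, and wild-type replicate 2 was the only wild-type array with gland signal in the knockout's range.

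Tlr1 (probe ILMN_1236908), the partner with which Tlr2 recognises triacylated lipopeptides, had the lowest point estimate of the 8. Its normalized log2 signal was 10.35, 8.89 and 10.01 on wild-type replicates 1, 2 and 3 and 8.91, 8.84 and 8.22 on the knockout arrays. Wild-type replicates 1 and 3 were thus above all knockout arrays, whereas wild-type replicate 2 lay within the knockout range, so the groups overlapped. Knockout arrays averaged 8.66 ± 0.38 and wild-type arrays 9.75 ± 0.76 (SD, n = 3). This is a log2 fold change of -1.09 (SE 0.41, 95% interval -2.08 to -0.10, limma adjusted p = 0.0899). Without wild-type replicate 2 the log2 fold change was -1.52 (SE 0.26) and Tlr1 passed the test (limma adjusted p = 0.00608). With wild-type replicate 2 as the sole control it was -0.24 (limma adjusted p = 0.679), a fit in which that lone array is taken to vary as the knockout arrays do. The B cell marker sum on wild-type replicate 2 was 45453, the lowest of the 3 wild-type arrays but above all knockout arrays.

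Tlr7, an endosomal receptor for single-stranded RNA, differed less between the genotypes. It read 10.35, 9.45 and 10.50 on wild-type replicates 1, 2 and 3 and 10.03, 9.54 and 10.24 on the knockout arrays, which lay inside the wild-type range. As for Tlr1, wild-type replicates 1 and 3 were above all knockout arrays and wild-type replicate 2 was low. The log2 fold change was -0.17 (SE 0.33, limma adjusted p = 0.722), with a 95% interval of -0.97 to 0.64. The sign changed with the arrays used, from -0.49 without wild-type replicate 2 to 0.48 against wild-type replicate 2 alone. On the 6 arrays neither of the 2 measured receptors that B cells share passed the test, and both point estimates were below 0.

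Tlr2, the common partner of Tlr1 and Tlr6 for bacterial lipopeptides, was nearly level between genotypes. It read 10.86, 11.02 and 11.05 on wild-type replicates 1, 2 and 3 and 11.38, 10.53 and 11.14 on the knockout arrays. The knockout arrays lay on both sides of the narrow wild-type range (SD 0.10 in wild type and 0.44 in the knockout). The log2 fold change was 0.04 (SE 0.24, 95% interval -0.55 to 0.63, limma adjusted p = 0.911).

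Tlr6 (probe ILMN_3162337), which pairs with Tlr2 for diacylated lipopeptides, read 9.18, 7.98 and 9.17 on the wild-type arrays and 9.37, 8.76 and 8.79 on the knockout arrays. Only wild-type replicate 2 stood apart, below the other 5 arrays. The log2 fold change was 0.20 (SE 0.38, limma adjusted p = 0.707), and it turned to -0.20 without wild-type replicate 2.

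Tlr1 and Tlr6 lie next to each other on chromosome 5 and encode the alternative partners of Tlr2, so their changes were compared array by array. With each gene set to its own wild-type mean, Tlr1 minus Tlr6 was 0.19, -0.06 and -0.13 on wild-type replicates 1, 2 and 3, and -1.44, -0.89 and -1.54 on the knockout arrays. The groups did not overlap, and here wild-type replicate 2 sat between the other wild-type arrays. The difference between genotypes was -1.29 on the log2 scale (knockout -1.29 ± 0.35, wild type 0.00 ± 0.17, SD, n = 3). An exact two-sided permutation test gave p = 0.10, the smallest that 3 arrays against 3 allow, so it cannot reach 0.05 and nothing is read from it. The pair was chosen with these values known, and neither gene alone passed the test. How far the probes of these paralogs cross-hybridise was not tested.

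The bases just upstream of the start sites of this pair are shown because the 2 genes are neighbours whose point estimates differ. The sequences are RefSeq's, build GRCm38.p6, for the most upstream start of each gene, 250 bases ending just before the start. Capitals mark the letters GAGGAA on either strand, a site bound by PU.1 (gene Spi1). Other sites of the ETS family, to which PU.1 belongs, were not searched for or marked.
Tlr1, chr5:64933559-64933808, minus strand: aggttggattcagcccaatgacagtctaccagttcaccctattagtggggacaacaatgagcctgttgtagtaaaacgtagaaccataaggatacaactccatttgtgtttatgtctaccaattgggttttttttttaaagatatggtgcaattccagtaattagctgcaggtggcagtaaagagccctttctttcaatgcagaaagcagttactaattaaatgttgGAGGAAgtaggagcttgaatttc
Tlr6, chr5:64960049-64960298, minus strand: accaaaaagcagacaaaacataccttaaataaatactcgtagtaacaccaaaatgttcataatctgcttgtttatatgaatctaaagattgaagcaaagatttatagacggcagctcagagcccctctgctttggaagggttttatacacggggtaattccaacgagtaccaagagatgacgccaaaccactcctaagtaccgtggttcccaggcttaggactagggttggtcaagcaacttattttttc
Tlr1 holds GAGGAA once, beginning 23 bases before the start, and Tlr6 does not hold it in this window. The same letters occur on either strand in 23.3% of 32851 promoter windows of this length. Neither window holds ATGCAAAT, the octamer bound by POU factors of B cells, which 1.6% of all windows hold. These matches are descriptions of the sequence only.

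Tlr8 (probe ILMN_2460572), an endosomal receptor that binds single-stranded RNA in human cells, had the highest point estimate of the members. It read 7.06, 5.49 and 7.31 on wild-type replicates 1, 2 and 3 and 8.19, 7.36 and 8.27 on the knockout arrays. All knockout arrays were above all wild-type arrays, though the lowest of the first and the highest of the second nearly touched. The log2 fold change was 1.32 (SE 0.52, 95% interval 0.05 to 2.59, limma adjusted p = 0.103). The probe was dim, with raw intensities of 163.1 to 298.4 in wild type and 209.1 to 372.9 in the knockout, which overlap. On wild-type replicate 2 it was not above the array's own background. Without that array the log2 fold change was 0.76 (limma adjusted p = 0.0921). With that array as the sole control it was 2.45 (limma adjusted p = 0.0447, where 6.47% of all genes were called).

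Tlr13, which recognises bacterial ribosomal RNA in mouse, has 2 probes that gave nearly the same answer. The brighter read 9.79, 8.09 and 10.22 on the wild-type arrays and 10.06, 9.59 and 10.09 on the knockout arrays, for a log2 fold change of 0.55 (SE 0.55, limma adjusted p = 0.464). The dimmer gave 0.53 (SE 0.57, limma adjusted p = 0.50). On both probes wild-type replicate 2 was far below the other arrays, with the lowest of the 6 values at 8.09 and 5.68. Without it the brighter probe's log2 fold change was -0.09 (limma adjusted p = 0.777), and with it as the sole control 1.82 (limma adjusted p = 0.0424). The summed signal of 12 tested macrophage and monocyte markers was 64409, 34072 and 74374 on the wild-type arrays and 61560 to 85310 on the knockout arrays. Among the wild-type arrays, replicate 2 also had the lowest sums of neutrophil markers (177402, 10354 and 50339), natural killer cell markers (9079, 4589 and 8574) and B cell, T cell, dendritic, stromal and endothelial markers. Their part in the receptor values was not tested.

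Tlr4, the receptor for lipopolysaccharide, read 9.25, 9.02 and 9.63 on the wild-type arrays and 9.66, 9.28 and 9.77 on the knockout arrays with its brighter probe. The groups overlapped and differed by 0.27 (SE 0.22, 95% interval -0.28 to 0.81, limma adjusted p = 0.388). A second Tlr4 probe was not well above background on any array (detection p from 0.315 to 0.991) and was not tested.

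Tlr3, which recognises double-stranded RNA and is found in dendritic cells and fibroblasts, lay at the edge of detection. It read 5.87, 6.06 and 5.90 on the wild-type arrays, where its detection p was 0.0113 to 0.0313, and 5.37, 5.78 and 5.49 on the knockout arrays, where it was 0.0677 to 0.0977. The groups did not overlap, but Tlr3 did not pass the test (mean 5.55 ± 0.21 against 5.94 ± 0.10, SD, n = 3, limma adjusted p = 0.119). The log2 fold change was -0.4, with a 95% interval of -0.8 to 0.01, which includes 0. The knockout arrays give only a bound. With their level set at the lowest detected signal, the point estimate was 1.1-fold lower in the knockout, a figure without allowance for array-to-array spread. With all arrays kept, Tlr3 was the only 1 of the 6 receptors of myeloid cells and stroma whose point estimate was below 0.

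**Figure D2:**
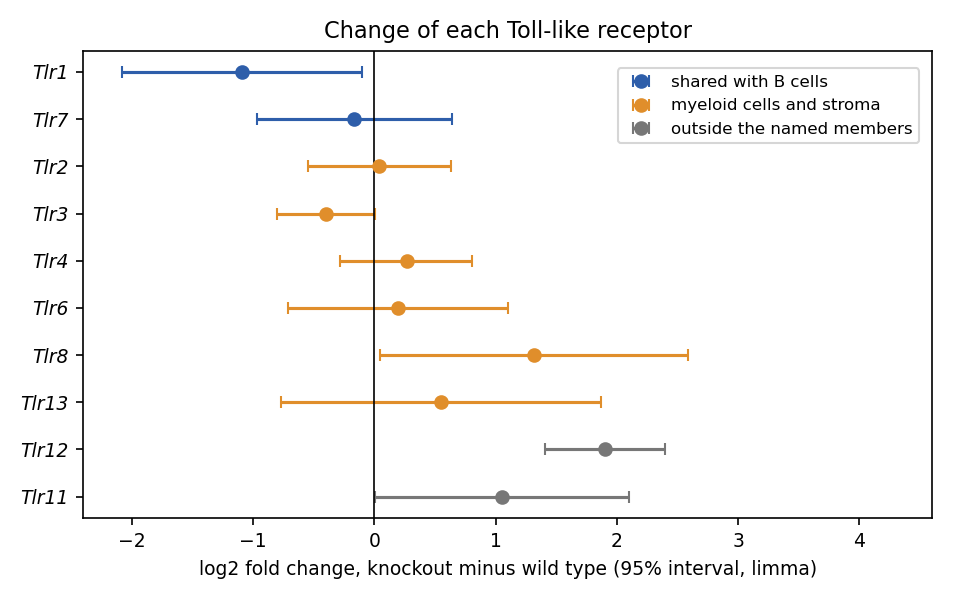
Log2 fold change, knockout minus wild type (horizontal axis), with its 95% interval from limma for the 8 measured members and for Tlr12 and Tlr11, which are outside the named members. Of the members, the intervals of Tlr1 and Tlr8 leave out 0 before adjustment, and Tlr12 has the highest value at 1.90.

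Set side by side on all 6 arrays, both measured receptors shared by B cells were below 0 and 5 of the 6 others above it. The median log2 fold change was -0.63 (range -1.09 to -0.17) for Tlr1 and Tlr7 and 0.23 (range -0.40 to 1.32) for the 6 receptors of myeloid cells and stroma. Without wild-type replicate 2 these medians were -1.01 and -0.02, and Tlr6 (-0.20) and Tlr13 (-0.09) joined Tlr3 (-0.34) below 0. As a mean deviation from each gene's wild-type mean, Tlr1 and Tlr7 stood at 0.42, -0.75 and 0.33 on wild-type replicates 1, 2 and 3 and at -0.46, -0.74 and -0.69 on the knockout arrays. The 6 others stood at 0.17, -0.55 and 0.38 in wild type and at 0.51, 0.05 and 0.43 in the knockout. Each class alone overlapped between the genotypes. For Tlr1 and Tlr7 the overlap came through wild-type replicate 2, and for the 6 others through knockout replicate 2, which lay below wild-type replicates 1 and 3, while wild-type replicate 2 was below every knockout array.

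The difference of the classes within an array did not overlap. It was 0.25, -0.20 and -0.05 on wild-type replicates 1, 2 and 3 and -0.96, -0.79 and -1.12 on the knockout arrays. The mean of Tlr1 and Tlr7 was thus lower relative to the other receptors on every knockout array, including against wild-type replicate 2. The single genes were uneven: on the knockout arrays Tlr1 stood at -0.84, -0.91 and -1.53 and Tlr7 at -0.07, -0.56 and 0.14. Of the others, the dim Tlr8 stood at 1.57, 0.74 and 1.65. Groups did not overlap for 47.4% of all single genes. With 2 genes in 1 class and members that are not replicates, no test was made of the class difference.

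**Figure D3:**
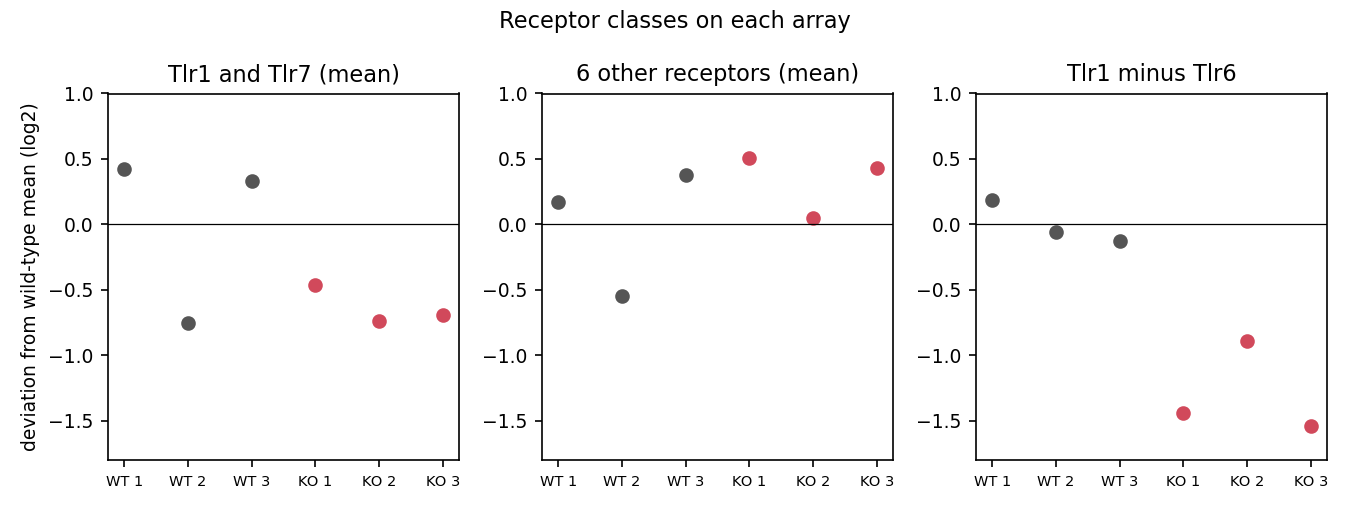
Deviation from the wild-type mean on the log2 scale (vertical axis) for the mean of Tlr1 and Tlr7, the mean of the 6 other receptors, and Tlr1 minus Tlr6, on each wild-type (WT, grey) and knockout (KO, red) array. The Tlr1 and Tlr7 panel overlaps between genotypes through WT 2 and the panel of 6 others through KO 2, whereas Tlr1 minus Tlr6 runs from -1.54 to -0.89 in the knockout and from -0.13 to 0.19 in wild type.

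Tlr11 and Tlr12, mouse endosomal receptors for the profilin of Toxoplasma that are outside the chosen members, were named after their values were seen. Tlr12 read 6.26, 5.86 and 6.33 on the wild-type arrays and 8.28, 7.80 and 8.09 on the knockout arrays. All knockout arrays were clearly above all wild-type arrays, and this held for the raw intensities too, at 180.6 to 218.0 in wild type and 256.9 to 377.3 in the knockout. Tlr12 rose by 1.90 on the log2 scale (SE 0.21, 3.74-fold, limma adjusted p = 0.00312) and passed the test with any 1 array left out, with log2 fold changes of 1.76 to 2.03. The size depended on the background correction: it was 1.51 with an offset of 50 and 1.10 with quantile normalization without background correction (limma adjusted p = 0.00409). Against wild-type replicate 2 alone it was 2.19 (limma adjusted p = 0.0375).

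Tlr12 is shown upstream of its start because it was the only 1 of the 10 tested family genes called on the 6 arrays, and Tlr8 because it had the highest estimate of the members. Source, length and capitals are as for Tlr1.
Tlr12, chr4:128618620-128618869, minus strand: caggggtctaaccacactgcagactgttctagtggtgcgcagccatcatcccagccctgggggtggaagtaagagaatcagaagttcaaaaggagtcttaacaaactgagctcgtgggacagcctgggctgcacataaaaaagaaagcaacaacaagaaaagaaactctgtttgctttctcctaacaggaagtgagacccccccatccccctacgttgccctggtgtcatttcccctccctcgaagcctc
Tlr8, chrX:167264330-167264579, minus strand: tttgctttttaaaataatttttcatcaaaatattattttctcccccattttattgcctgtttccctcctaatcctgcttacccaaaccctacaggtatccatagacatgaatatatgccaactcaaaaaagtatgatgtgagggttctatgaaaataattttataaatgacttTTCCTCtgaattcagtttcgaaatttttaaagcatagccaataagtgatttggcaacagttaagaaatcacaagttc
The Tlr8 window holds GAGGAA on the opposite strand, and the Tlr12 window does not hold it. Among family windows not shown, those of Tlr9, Tlr11 and Tlr13 also hold GAGGAA, and that of Tlr9 holds ATGCAAAT. Those of Tlr2, Tlr3 and Tlr5 hold neither.

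Tlr11 read 7.05, 6.0 and 7.25 on the wild-type arrays and 8.51, 7.47 and 7.49 on the knockout arrays. The groups did not overlap on this scale, though raw intensities did, and the log2 fold change of 1.05 (SE 0.43) did not pass the test (limma adjusted p = 0.111). That fold change was 0.67 without wild-type replicate 2, 1.82 against wild-type replicate 2 alone and 0.71 without knockout replicate 1. Of 8 tested conventional dendritic cell markers 5 rose and 0 fell, where 10.2% of all genes rose. Their summed signal was 11662 to 20545 in the knockout and 3427 to 5997 in wild type. Most of it was Fscn1 (log2 13.03 to 13.92 in the knockout and 11.18 to 12.08 in wild type). Ccl22, another of the 5, was detected on no wild-type array and so entered the test through the knockout alone. Clec10a (-0.38), Xcr1 (-0.26) and Cd209a (0.23) were not called, and Itgax, Flt3 and Clec9a were below the detection filter. Of 5 plasmacytoid dendritic cell markers 1 rose and 1 fell, against 10.2% and 17.3% of all genes. The sums of these markers were 10684 to 15553 in the knockout and 10847 to 17958 in wild type. The part of these cell types in the Tlr12 value was not tested.

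**Figure D4:**
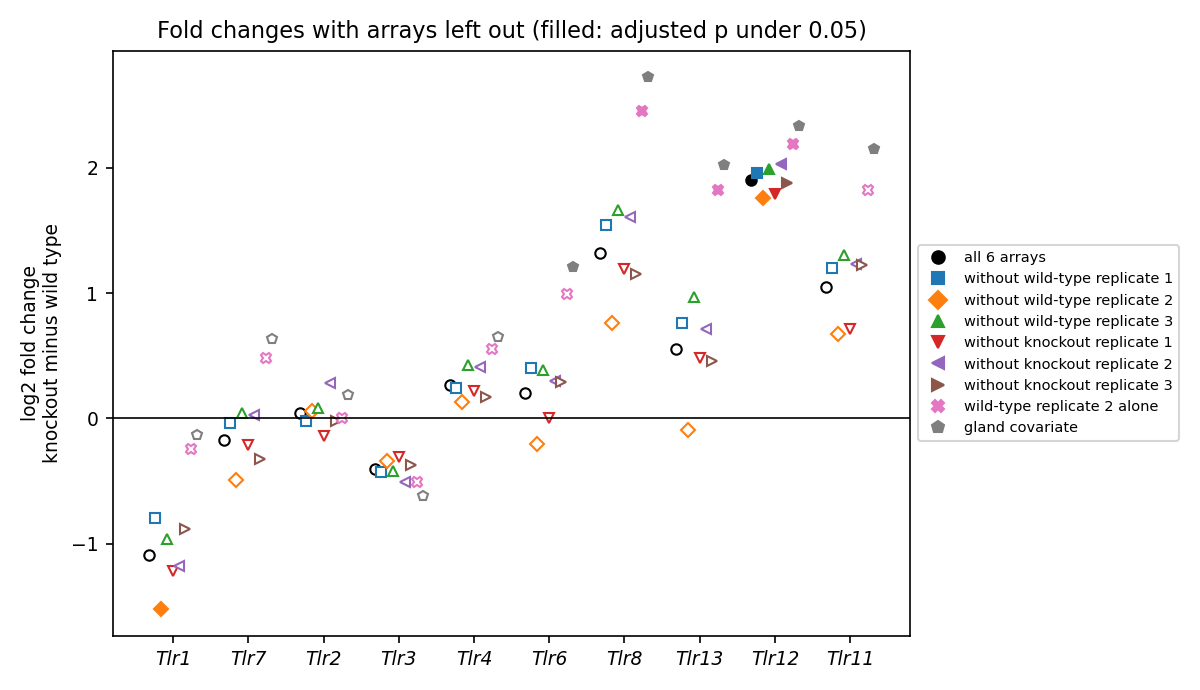
Log2 fold change, knockout minus wild type (vertical axis), of each receptor on all 6 arrays, with each array left out, against wild-type replicate 2 alone, and with the mean gland marker signal as a covariate. Filled symbols passed an adjusted p under 0.05. Tlr12 is filled throughout, Tlr1 is filled only without wild-type replicate 2, and Tlr8 and Tlr13 are filled against wild-type replicate 2 alone and with the gland covariate, which also fills Tlr6 and Tlr11.

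Downstream of the receptors, 80 genes of 5 pathway lists were tested, of which 6 rose and 9 fell, or 18.8% against 27.5% of all genes. Of all genes 10.2% rose and 17.3% fell, shares that stand beside the counts of each list below. With the gland covariate 9 of these 15 calls ended: Btk (-0.85), Tab2 (-0.52), Ticam1 (0.63), Hsp90b1 (-0.62), Cyld (-0.37), Tnfaip3 (-0.29), Nlrc3 (-0.49), Jun (0.39) and Atf3 (1.11), while Irak1, Cd14, Dok3, Relb, Il12a and Cxcl9 passed. Other list genes were newly called in that fit. Its calls were 2 adaptors and kinases, 4 transcription factors, 5 coreceptor and trafficking genes, 3 inhibitors and 5 induced genes, against 20.9% of all genes. Without the covariate, among 17 adaptors and kinases 1 rose and 3 fell (median log2 fold change 0.03). Btk, a kinase of B cell receptor and Toll-like receptor signalling that is abundant in B cells, fell by 1.64 (SE 0.32, limma adjusted p = 0.0142). Irak1, the kinase recruited by MyD88, fell by 0.81 and Tab2, a ubiquitin-binding partner of TAK1, fell by 0.58, while Ticam1, which encodes TRIF, rose by 0.54, with limma adjusted p of 0.0184, 0.0249 and 0.0479. The other tested probe of Ticam1 did not pass. The common adaptor Myd88 averaged 13.21 ± 0.25 on knockout and 13.04 ± 0.35 on wild-type arrays (SD, n = 3, limma adjusted p = 0.599). With single arrays left out, Btk held when the array dropped was knockout replicate 1, wild-type replicate 1 or wild-type replicate 2, and Irak1 when it was knockout replicate 2, wild-type replicate 1 or wild-type replicate 2. Tab2 held only without wild-type replicate 2, and Ticam1 was lost whichever array was left out. Among all genes the share called was 27.5% on all 6 arrays and 43.4% without wild-type replicate 2. It was 11.6% to 15.9% with any other array left out, and these shares apply to the lists below too.

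Among 19 coreceptor and trafficking genes 1 rose and 1 fell (median 0.22). Cd14, which hands lipopolysaccharide to Tlr4, rose by 1.20 (SE 0.29, limma adjusted p = 0.0283), whereas its partner Ly96, the MD-2 subunit, stood at -0.51 (SE 0.23, limma adjusted p = 0.142). Hsp90b1, the chaperone gp96 on which Toll-like receptor folding depends, fell by 1.16 (limma adjusted p = 0.0387). It is also abundant in antibody-secreting cells. Unc93b1, which carries the endosomal receptors to their compartment, was level at -0.01. Cd180, a Toll-like receptor relative of B cells, stood at -1.20 (SE 0.45) with a limma adjusted p of 0.0899, the same adjusted p as Tlr1. With single arrays left out, Cd14 held only without wild-type replicate 2 or 3, and Hsp90b1 only without wild-type replicate 2.

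Among 15 inhibitors 1 rose and 4 fell (median -0.05). Dok3, an adaptor that restrains B cell receptor and Toll-like receptor signalling, fell by 1.69 (SE 0.26, limma adjusted p = 0.00782) and passed with any 1 array left out. The deubiquitinase Cyld, the ubiquitin-editing enzyme Tnfaip3 (A20) and Nlrc3 fell by 0.75, 0.87 and 1.14, and the transcriptional repressor Atf3 rose by 1.11, with limma adjusted p of 0.0287, 0.0417, 0.0453 and 0.0337. With single arrays left out, Cyld and Tnfaip3 held only without wild-type replicate 2. Nlrc3 and Atf3 held without it too and, respectively, without knockout replicate 1 and knockout replicate 3, and were lost otherwise. Irak3, a kinase relative that blocks signalling in macrophages, stood at -0.12.

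Among 13 transcription factors 2 rose and 0 fell (median 0.11). The NF-kB subunit Relb, which is high in mature dendritic cells, rose by 1.28 (SE 0.36) and Jun rose by 0.98, with limma adjusted p of 0.0413 and 0.0366. With single arrays left out, Relb held only without wild-type replicate 1 and Jun only without wild-type replicate 2. Spi1, which encodes PU.1, stood at 0.95 (limma adjusted p = 0.181), and Irf7, which drives type I interferon after Tlr7 and Tlr9 signalling, at 0.74 (limma adjusted p = 0.112).

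Of 16 tested cytokines and enzymes that these receptors induce, 1 rose and 1 fell (median 0.06). Il12a, the p35 chain of interleukin 12, read 8.12 ± 0.61 in wild type and 5.67 ± 0.17 in the knockout (SD, n = 3), where 1 of 3 arrays detected it. It fell by 2.46 (SE 0.32, limma adjusted p = 0.00475) and passed with any 1 array left out, but as most knockout values lay at background its size is uncertain. The log2 fold change was -1.89 with an offset of 50 and -1.36 with quantile normalization without background correction (limma adjusted p = 0.0105). Cxcl9, a chemokine induced by interferon gamma, rose by 1.66 (SE 0.42, limma adjusted p = 0.0318), a call that held when knockout replicate 2, wild-type replicate 2 or wild-type replicate 3 was left out and ended when any of the others was. Tnf stood at -1.10, Il1b at 1.19 and Cxcl10 at 0.78, none past the test. Il6, Il27, Cxcl2, Ptgs2, Nos2 and Ifnb1 were below the detection filter.

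**Figure D5:**
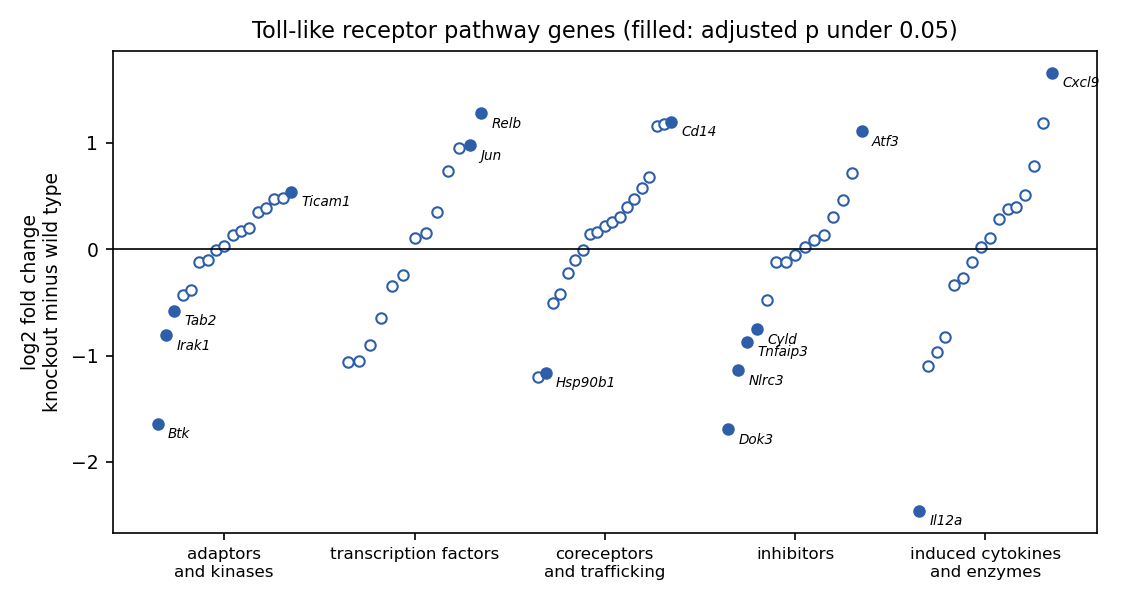
Log2 fold change, knockout minus wild type (vertical axis), of the 80 tested genes of the 5 pathway lists, sorted within each list. Filled, named points passed an adjusted p under 0.05. Il12a is at -2.46, a value that was -1.36 without background correction, and Cxcl9 is highest at 1.66.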

How the data were processed

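Each probe has 1 deposited intensity per array before normalization; the submitters' processing notes name GenomeStudio 2011.1. Per the file headers it also holds a detection p-value per probe and array. The authors' own deposited log2 values matched a quantile normalization of the log2 intensities to within 5e-07 and have a median of 7.38 on each array. They served only as an alternative.

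Using neqc (limma 3.58.1 in R 4.3.3), intensities of 25697 probes were background-corrected, given an offset of 16, normalized by quantiles and put on the log2 scale. A probe entered the test if its detection p was under 0.05 on at least 3 of 6 arrays (14378 probes). Tests used lmFit and eBayes, two-sided, with Benjamini-Hochberg adjustment over all of them. Differences are knockout minus wild type. The offset shrinks changes of dim probes. A gene was represented by its tested probe with the highest mean. Traf6, Tab1, Tirap, Pld3 and Slc15a4 thus count as not called, although another probe of each passed the test. Where a group had no detected array, its level was bounded by the lowest detected signal of each array. The number of arrays limits the precision. Marker sums add the linear normalized signals of tested genes. The fit was tested on simulated data.

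Symbols come from the platform annotation (23978 probes with 1 symbol, 1719 with none), and RefSeq's GRCm38.p6 gene table changed 0 of them. The files name no genome build.

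The members, the gene lists and the tests were chosen with earlier results of these data known. Named genes are all members and, from each pathway list and direction, up to 4 called genes with the largest change; Tlr11, Tlr12 and genes given as not called were named after their values were seen. A comparison with genes of similar pattern was planned for called members only, and there were 0. Alternatives covered normalization, filters, array weights, a replicate block, a gland covariate and arrays left out.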

Additional observations from a re-analysis of the deposited data

How the results depend on the processing

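Other normalizations and filters left 0 Toll-like receptor genes called, in fits that called 25.9% to 28.7% of all genes. Tlr3 and Tlr8 were not tested with detection required on all 6 arrays, nor Tlr3 with a detection p under 0.01. Array weights called 2 (Tlr1 and Tlr3), in a fit that called 55% of all genes. The gland covariate called 3 (Tlr6, Tlr8 and Tlr13), against 20.9% of all genes. With wild-type replicate 2 as sole control, Tlr8 stood at 2.45 and Tlr13 at 1.82. With 1 array left out the count of called receptors was 0 to 1, in fits that called 11.6% to 43.4% of all genes. The median log2 fold change of the receptors shared with B cells was -0.63, but 0.25 in the covariate fit and 0.12 with wild-type replicate 2 as sole control, where that of the others went from 0.23 to 0.93 and 0.77. With 1 array left out these ran from -1.01 to -0.42 and from -0.02 to 0.41. Called probes numbered 4119, and 7968 with array weights, 950 against wild-type replicate 2 alone and 1805 (without knockout replicate 3) to 6298 (without wild-type replicate 2) with 1 array left out. Signs turned for Tlr7 (0.63 in the covariate fit, 0.48 with wild-type replicate 2 as sole control), Tlr6 (-0.21 with array weights) and Tlr2 (0.00 against wild-type replicate 2 alone). With 1 array left out Tlr7 ran from -0.49 to 0.04, Tlr6 from -0.20 to 0.40, Tlr2 from -0.14 to 0.28 and Tlr13 from -0.09 to 0.97. The cause was not tested.

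Called genes of the lists of adaptors and kinases, transcription factors, coreceptors and trafficking, inhibitors, and induced cytokines and enzymes numbered 4, 2, 2, 5 and 2. With the gland covariate they were 2, 4, 5, 3 and 5, where 20.9% of all genes were called. With array weights they were 9, 6, 6, 7 and 6, where 55% of all genes were called. With 1 array left out they ran from 0 to 5, 0 to 5, 0 to 4, 1 to 6 and 1 to 4. Those fits called 11.6% to 43.4% of all genes. Without a filter the counts were 5, 0, 1, 3 and 1, where 25.9% of all genes were called. With detection on all 6 arrays there were 4 transcription factors and 1 induced gene, where 28.7% of all genes were called.

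Same-numbered arrays did not deviate together in each pair (correlations of 0.49, 0.32 and -0.31), so the numbers were not taken as pairs. With the replicate block Tlr8 passed (limma adjusted p = 0.0211), so 1 of 8 receptors was called. So were 5 of 13 tested transcription factors and 5 of 16 induced genes, in a fit that called 31.7% of all genes.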
